A study of Mus musculus with 2 samples.

Results

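The mitochondrial ribosomal protein genes are described here as the protein-coding genes of the mouse annotation whose symbols are Mrpl or Mrps followed by a number. The rule found 78 genes among 21887 protein-coding genes, 49 named for the large subunit (Mrpl) and 29 for the small subunit (Mrps). Binding of USF1, a transcription factor that works as a dimer, was mapped by ChIP-seq in the immortalized B-cell lymphoma line CH12.LX of the mouse strain B10.H-2aH-4bp/Wts. There was 1 group, with 2 replicates that the labels call biological and no treatment, so no condition was compared. The labels do not say whether the replicates came from separate cultures. The line is 1 cell line from 1 donor animal. Expression was not measured, so the labelled cell type could not be checked against markers.

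Mitochondrial ribosomes translate the few proteins encoded by mitochondrial DNA, which are subunits of the respiratory chain and of ATP synthase. Their protein subunits are encoded in the nucleus, made in the cytosol and imported. USF1 is a basic helix-loop-helix leucine zipper protein whose best known site is the palindromic E-box CACGTG. A few of the gene names do not match the protein's place. The proteins of Mrps18a and Mrps30 sit in the large subunit, and that of Mrps36 belongs to the 2-oxoglutarate dehydrogenase complex. Counts below follow the symbols.

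A gene was called bound where the summit of a region lay within 1 kb of any annotated 5′ end of the gene. Regions came from the authors' optimal list in the mm10 build (8108 regions) and from their separate mm9 list (10624 regions). Signal is the authors' own value per region. Its scale is not given, so it was compared only within a build, and read depth is unknown because the files used here hold no read counts. Sequence was read in mm9 only.

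At 8 members the strongest mm9 peak held the E-box CACGTG within 50 bp of its summit. These sites are shown because they include the 4 highest peaks of the family. Each is a stretch of 30 bases of the mm9 genome, written 5′ to 3′ on the strand of the gene, with the E-box in capitals, in falling order of mm9 signal.
Mrpl2 (chr17:46783027-46783056, plus strand): actgccgcccgtCACGTGacccgagcaacc
Mrpl27 (chr11:94515277-94515306, plus strand): actgtctccggtCACGTGacacgttgtggg
Mrps18c (chr5:101227603-101227632, plus strand): gcagccccgggtCACGTGacttccggcccg
Mrpl36 (chr13:73468402-73468431, plus strand): cacacgtcatccCACGTGaccttacgccat
Mrpl23 (chr7:149719413-149719442, plus strand): gtgttcagtaaaCACGTGacccactggttg
Mrpl41 (chr2:24831565-24831594, minus strand): gtaaacagccctCACGTGgtctaaggggaa
Mrpl20 (chr4:155176942-155176971, plus strand): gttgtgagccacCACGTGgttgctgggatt
Mrpl37 (chr4:106739616-106739645, minus strand): agcaagtttcttCACGTGtggcacttcaga

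With the base on each side included and either strand read, the E-box was TCACGTGA at Mrpl2, Mrpl27 and Mrps18c, which held 3 of the 4 highest mm9 signals of the family. It was CCACGTGA at Mrpl36 and Mrpl41, ACACGTGA at Mrpl23 and Mrpl37, and CCACGTGG at Mrpl20. Over all 1833 mm9 peaks with CACGTG within 1 kb of a protein-coding 5′ end, the copy nearest the summit was read. These forms made up 18.4%, 26.1%, 9.0% and 11.7% of those peaks.

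In the optimal list 18 of the 78 genes were bound (23.1%), against 12.5% of the 21536 protein-coding genes that could be given a strand. The bound genes were 12 of 49 large subunit genes (24.5%) and 6 of 29 small subunit genes (20.7%). In the mm9 list 21 of 78 were bound (26.9%), against 14.9% of 22367 genes. There the large subunit had 16 of 49 (32.7%) and the small subunit 5 of 29 (17.2%). With Mrps18a and Mrps30 counted in the large subunit, 13 of 51 large and 5 of 27 small subunit genes were bound in the optimal list. In mm9 this recount gave 17 of 51 (33.3%) and 4 of 27 (14.8%). Mrps36 was left in the small subunit by its symbol in this recount, although its protein belongs elsewhere. The difference between subunits was not tested. The authors' stricter conservative mm10 list left 15 members bound, 10 large and 5 small, beside 11.7% of all genes.

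**Figure D1:**
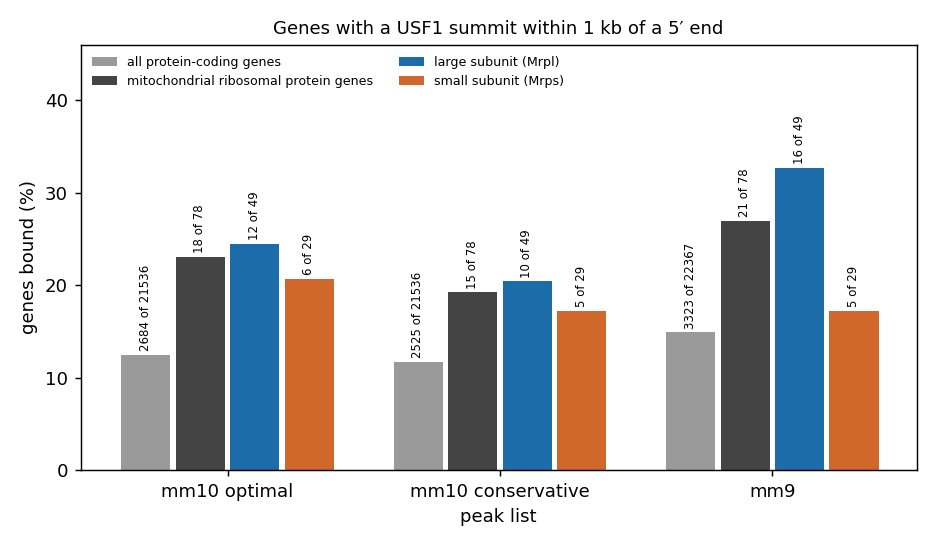
Percent of genes with a USF1 summit within 1 kb of an annotated 5′ end (vertical axis) in 3 peak lists (horizontal axis), for all protein-coding genes (grey), the mitochondrial ribosomal protein genes (black), and those of the large (blue) and small (orange) subunit; counts stand over the bars. The black bars reach 23.1% in the optimal list and 26.9% in mm9, beside grey bars at 12.5% and 14.9%.

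The lists named largely the same genes. Of the bound genes, 17 were bound in both, which is 94.4% of those in the optimal list and 81.0% of those in mm9. Mrps2 was bound in the optimal list only. Mrpl17, Mrpl30, Mrpl37 and Mrpl55 were bound in mm9 only, all with mm9 signals of 50.6 or less. The Mrps2 difference goes with the annotation. In mm10 its summit lay 391 bp downstream of one annotated 5′ end, whereas in mm9 the nearest summit (signal 346, with neither E-box) lay 1724 bp from the nearest annotated end.

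The large subunit held 3 of the 4 strongest regions, beside 12 of all 18 bound regions. At Mrpl27 (chr11:94653808-94654107 in mm10) signal was 274 in replicate 1 and 277 in replicate 2, and 548 in the optimal list, where it ranked 115. At Mrpl2 (chr17:46645964-46646236) it was 210 and 229, and 435 in the optimal list. Mrpl36 (chr13:73330856-73331100) had 192 and 236, and 428 in the optimal list. The small subunit gene among the 4, Mrps18c (chr5:100798459-100798721), had 258 and 259, and 514 in the optimal list, rank 234. In each replicate these 4 genes were above all other members bound in the optimal list. They were picked by their optimal signal, which is derived from both replicates, so this is not separate support. Mrpl2 protein belongs to the conserved core of the large subunit, next to the peptidyl transferase centre, and Mrps18c encodes a relative of bacterial S18 that is in the small subunit.

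The next regions were those of Mrpl23, with 98.4 in replicate 1 and 149 in replicate 2, and Mrpl41, with 120 and 113. Mrps2, which encodes a small subunit protein with a bacterial counterpart, had 88.5 and 120. Mrps18a had 73.2 and 102, Mrpl45 64.0 and 73.7, and Mrpl20 58.3 and 58.8. Mrpl45 protein lies at the exit of the peptide tunnel. Mrps18b, the third of the S18 relatives, had 51.1 and 35.3. All 3 of the S18 relatives were thus bound, over a range from 88.6 (Mrps18b) to 514 (Mrps18c) in the optimal list. Of all members 23.1% were bound in that list, and of all protein-coding genes 12.5%. At Mrps18b and Mrps18c the summit lay nearer the 5′ end of another gene (Ppp1r10 and Helq). Whether binding is a trait of these relatives was not tested.

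The remaining 7 genes had optimal signals between 33.4 and 72.1. Mrpl52 had 23.1 in replicate 1 and 47.6 in replicate 2, and Mrpl39 had 16.9 and 44.6. These were the only members that differed between replicates by more than 2-fold (log2 ratios of 1.04 and 1.40). Mrps9 went the other way, with 21.6 and 11.4 (log2 ratio of -0.92). Mrpl12, whose protein is part of the stalk of the large subunit, had 27.3 and 25.6. Mrpl43 had 16.9 and 25.6, Mrpl13 12.6 and 20.1, and Mrps36 15.4 and 15.5.

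**Figure D2:**
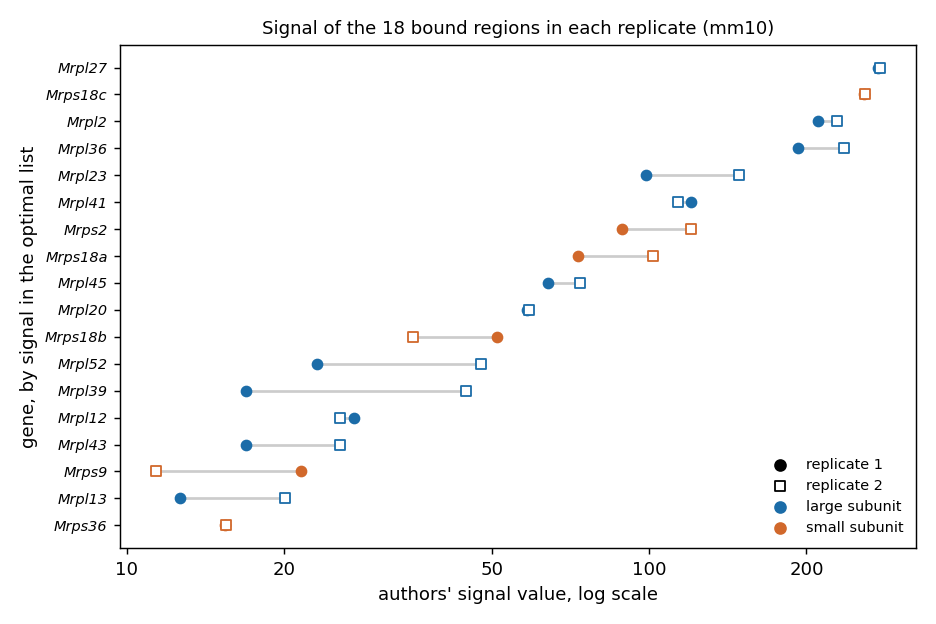
The authors' signal value (horizontal, log scale) in replicate 1 (filled circles) and replicate 2 (open squares) at the 18 regions bound in the optimal mm10 list, ordered by their optimal signal, for large (blue) and small (orange) subunit genes. Mrpl27, Mrps18c, Mrpl2 and Mrpl36 lie at 192 or more in both replicates, and Mrpl52 and Mrpl39 show the widest gaps.

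Over the 18 regions the median log2 ratio of replicate 2 to replicate 1 was 0.16 (SD 0.54), and 14 of 18 were higher in replicate 2. Over all 8054 optimal regions found in both replicates the median was 0.18 (SD 0.50), with 68.8% higher in replicate 2. Summits in the 2 replicates were a median of 8 bp apart at the members and 12 bp at all regions. The members' median optimal signal was 127 (range 33.4 to 548), beside 131 for all bound protein-coding genes, and it was 127 over 12 large and 133 over 6 small subunit genes. In mm9 the medians were 87.5 for the members and 112 for all bound genes.

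E-box class divided the mm9 peaks of the family. Within 50 bp of the summit of each gene's strongest peak, CACGTG was found at 8 of 21 (38.1%), CACATG without CACGTG at 1 (Mrps9) and neither at 12 (57.1%), searching both strands. Among the 3239 mm9 peaks within 1 kb of a protein-coding 5′ end the shares were 56.6%, 13.3% and 30.1%. Windows of 25 and of 100 bp on each side gave the same member counts. Of the 8 with CACGTG, 7 were among the 16 large subunit peaks (43.8%). The other was Mrps18c, 1 of 5 small subunit peaks (20%). This difference was not tested.

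Peaks with CACGTG had the higher signals. Their median in mm9 was 670 (47.7 to 2401), and that of the 12 peaks with neither was 55.1 (32.3 to 271), with overlapping ranges. From high to low the mm9 signals with CACGTG were 2401 at Mrpl2, 2265 at Mrpl27, 1524 at Mrps18c, 959 at Mrpl36, 381 at Mrpl23, 345 at Mrpl41, 159 at Mrpl20 and 47.7 at Mrpl37. With neither E-box, Mrps18a had 271, Mrpl45 197, Mrps18b 125 and Mrpl52 87.5, and the other 8 had 61.4 or less. A like order held at all peaks near 5′ ends, with medians of 195 (CACGTG), 74.5 (CACATG only) and 48.2 (neither). Among the 5312 strongest regions of the mm9 list, which bound 9.74% of all genes, 7 of 11 member peaks held CACGTG, beside 69.9% of peaks near 5′ ends. Among the weaker regions it was 1 of 10, beside 34.6%, and 8 of 10 held neither, beside 50.7%.

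**Figure D3:**
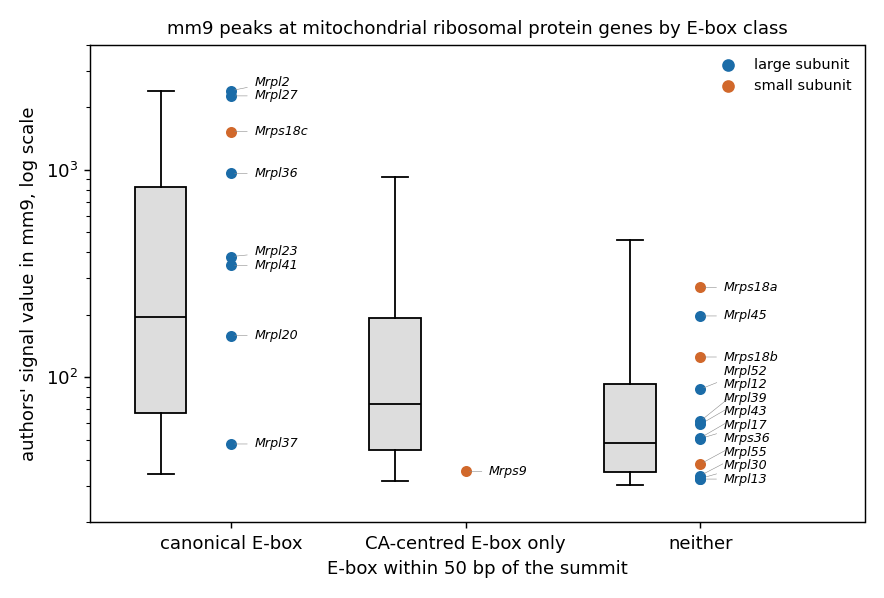
The authors' mm9 signal value (vertical, log scale) of the strongest peak at each of the 21 bound genes, by E-box class within 50 bp of the summit (horizontal), with large subunit genes in blue and small subunit genes in orange. Grey boxes give the median, quartiles and, as whiskers, the 5th and 95th percentiles of all mm9 peaks within 1 kb of a protein-coding 5′ end. The 4 highest points, Mrpl2 to Mrpl36, all have the canonical E-box, and no peak with neither exceeds 271.

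The E-boxes were not at one fixed distance from the gene starts. The E-box centre lay 28.5 bp upstream of the nearest annotated 5′ end at Mrps18c, 33.5 bp at Mrpl27 and 40.5 bp at Mrpl36. It lay 136.5 bp upstream at Mrpl2 and 157.5 bp at Mrpl37, and 688.5 bp and 961.5 bp at Mrpl20 and Mrpl41. At Mrpl23 it lay 510.5 bp downstream, in an intron. The RefSeq start of Mrpl20 used for mm10 matches, by its sequence, a position in mm9 that is 658 bp from the nearest end annotated there, so the mm9 and mm10 distances of this gene are measured from different starts. Measured from the RefSeq start, the summit lay 45 bp upstream in mm10 and 32 bp upstream in mm9. The distances at Mrps18c and Mrpl27 also depend on the start used. Measured from their RefSeq starts, the mm9 summit lay 159 bp upstream at Mrps18c and 173 bp downstream at Mrpl27. From the nearest mm9 ends it lay 27 bp and 47 bp upstream. At Mrpl36 the summit lay 24 bp upstream by both annotations.

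Second mm9 peaks were found at 4 genes. Those of Mrpl20 (signal 30.3) and Mrpl45 (31.1) held neither E-box. The sites of the other two are shown because they hold E-boxes of their own. Mrpl2 had a second mm9 peak of signal 277, 225 bp downstream of its start, and Mrps18b had a second of 41.3, 97 bp upstream. The CACATG of Mrps9 and Mrps18b reads as CATGTG on the strand of the gene.
Mrpl2, second peak (chr17:46783412-46783441, plus strand): gctaggcgagatCACGTGaccttcgttctc
Mrps18b, second peak (chr17:36053404-36053433, minus strand): tccgcccttagaCATGTGagcagccgcctt
Mrps9 (chr1:42907951-42907980, plus strand): taagccgaaagcCATGTGcaaggcaacctg

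Of the 21 mm9 summits, 8 lay outside every protein-coding gene. Another 6 lay outside the member but inside a different protein-coding gene (at Mrpl30, Mrpl37, Mrpl41, Mrpl43, Mrps18b and Mrps18c). In the member itself, 4 lay in an untranslated exon (Mrpl12, Mrpl13, Mrpl39 and Mrps18a), 1 in a coding exon (Mrps36) and 2 in an intron (Mrpl23 and Mrpl27). The Mrpl27 summit was at the same time in an untranslated exon of Eme1. The median distance from summit to 5′ end was 65 bp in mm9, beside 102 bp for all bound genes, and 89 bp in the optimal list, beside 95 bp.

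Many of the genes share a bidirectional promoter, counted here as a protein-coding 5′ end on the other strand, pointing away, within 1 kb upstream. In mm9 this held for 27 of 78 members (34.6%), beside 10.3% of all protein-coding genes, with 18 of 49 in the large and 9 of 29 in the small subunit. It held for 8 of the 21 bound members (38.1%) and 19 of the 57 others (33.3%). Read the other way, 8 of 27 bidirectional members were bound (29.6%) and 13 of 51 others (25.5%). Over all genes these shares were 28.0% and 13.4%.

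The partners of the bound members in mm9 were a mixed group. Eme1, a subunit of a DNA endonuclease, faces Mrpl27, and Helq, a DNA helicase, faces Mrps18c. Twnk (named Peo1 in the mm9 annotation), the helicase of mitochondrial DNA, faces Mrpl43. Pnpla7, a lysophospholipase, faces Mrpl41 at a gap of 935 bp. Ppp1r10, a regulatory subunit of protein phosphatase, faces Mrps18b. Mtbp (a protein that binds Mdm2), Mitd1 (cell abscission) and Cyb5rl (a cytochrome b5 reductase relative) face Mrpl13, Mrpl30 and Mrpl37. In the mm10 annotation Klc4, a kinesin light chain, also faces Mrpl2. Ndufs6, a subunit of respiratory complex I, is paired in mm10 with an alternative upstream start of Mrpl36 and not with the start at the peak.

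At shared regions the summit usually lay nearer the other gene. In the optimal list 8 of the 18 member summits (44.4%) were also within 1 kb of a 5′ end of a second protein-coding gene, beside 21.8% for all bound genes, and the second gene was nearer at 8 of 8. At all genes with such a summit the other gene was nearer in 49.5%. That share is set largely by the counting, because a shared summit is generally counted from the side of each gene. The Helq start was 1 bp from the summit and that of Mrps18c 160 bp. The Pnpla7 start was 6 bp away and that of Mrpl41 941 bp, the largest distance among the bound members. The summit given to Mrps2 was 18 bp from the start of 1700007K13Rik. In mm9 there were 9 such summits, and the other gene was nearer at 7. The exceptions were Mrpl13, 14 bp away with Mtbp at 45 bp, and Mrpl2, 123 bp away with Klc4 at 951 bp. Both the peak list and the annotation differ between the builds, and their parts in the change at these 2 genes were not tested. The count of nearer genes was chosen after the values were seen.

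**Figure D4:**
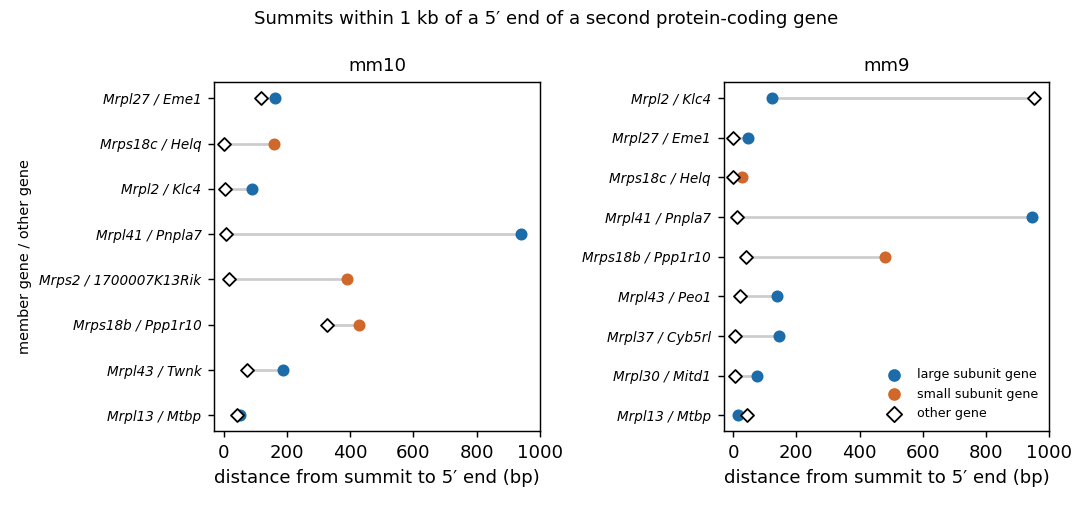
Distance in bp (horizontal) from the summit to the nearest 5′ end of the member gene (filled circles, large subunit blue, small subunit orange) and of the second protein-coding gene (open diamonds), for summits within 1 kb of both, in mm10 (left, optimal list) and mm9 (right). In mm10 the diamond lies nearer 0 than the circle in all 8 rows, and in mm9 in 7 of 9.

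The promoters of the family were set beside those of all protein-coding genes over 300 bases (250 upstream to 50 downstream of the outermost mm9 5′ end). Besides both E-boxes, the strings searched on both strands were CCGGAAG, part of the site of ETS factors, AAGATGG for the factor YY1, GGGCGG for the GC box, TGACGTCA for the cAMP response element (CRE), and for the factor NRF1 a string that allows any base at its sixth position and is in capitals in the NRF1 stretches below. CACGTG was in 5 of 78 member promoters (6.41%), beside 7.78% of all, and CACATG in 6.41%, beside 12.1%. Mrpl20, Mrpl23, Mrpl27 and Mrpl41 count here as without CACGTG, because the E-boxes at their peaks lie outside these 300 bases. At the RefSeq start of Mrpl20 the 300 bases do hold CACGTG. The ETS string was in 29 (37.2%), beside 10.8%, the NRF1 string in 12 (15.4%), beside 6.02%, and the YY1 string in 13 (16.7%), beside 6.73%. The GC box was in 47.4%, beside 43.4%, and the CRE in 2.56%, beside 2.32%. The ETS string was in 48.3% of small and 30.6% of large subunit promoters. NRF1 and ETS factors are known as regulators of nuclear genes for mitochondrial proteins. A match is a string of letters and not a measured site.

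Bound and unbound members were then set side by side. CACGTG was in 4 of 21 bound and 1 of 57 unbound member promoters, and the ETS string in 8 of 21 and 21 of 57. NRF1 strings were in 23.8% and 12.3%, and YY1 strings in 23.8% and 14.0%. Over all 3323 bound protein-coding genes the shares were 28.83% for CACGTG, 17.97% for ETS, 11.22% for NRF1 and 7.76% for YY1. The CACGTG share of the bound members (19.0%) was thus below that of all bound genes. Their ETS, NRF1 and YY1 shares were above those of all bound genes, and so was their CACATG share (14.3%, beside 11.9%). Their shares for the GC box (52.4%, beside 64.2%) and the CRE (0%, beside 3.25%) were below. Of the 5 member promoters with CACGTG, 4 were bound, beside 55.0% of the 1741 such promoters of all genes. The exception was Mrpl54. Its CACGTG lies 11.5 bp downstream of the 5′ end and has the flanks GCACGTGC. That form was the copy nearest the summit at 2.35% of the peaks near 5′ ends with CACGTG. How often promoters without a peak hold that form was not counted. Whether the flanks bear on the call at Mrpl54 was not tested. In replicate 2 a relaxed region of signal 19.1 was listed at Mrpl54, and none in replicate 1. Without replicate 1, taking as many of the strongest regions of replicate 2 as the optimal list holds, Mrpl54 was bound. Its stretch is shown beside the bound sites for its different flanks.
Mrpl54 (chr10:80729643-80729672, minus strand): cacggaagtctgCACGTGcgagcggccggc

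**Figure D5:**
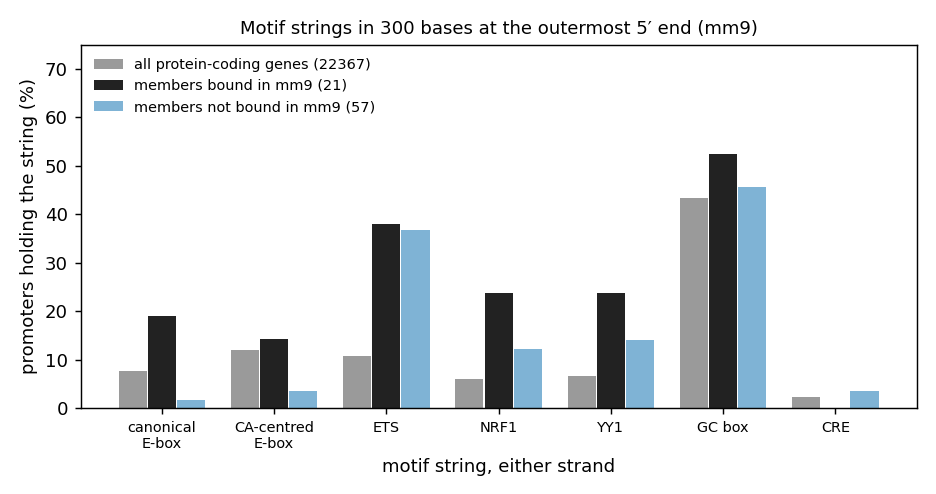
Percent of promoters (vertical) that hold each motif string on either strand (horizontal) in the 300 bases at the outermost mm9 5′ end, for all 22367 protein-coding genes (grey), the 21 bound members (black) and the 57 unbound members (light blue). The ETS string is at 38.1% and 36.8% in bound and unbound members beside 10.8% of all genes, and the canonical E-box at 19.0% and 1.75%.

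Within the 101 bases at the summits, the ETS string was at 3 of 21 member peaks, beside 7.93% of all peaks near 5′ ends, the NRF1 string at 3, beside 3.61%, and the YY1 string at 3, beside 2.66%. The GC box was at 8 of 21, beside 33.7%, and the CRE at none, beside 1.95%. More of the member peaks hold neither E-box, so peaks of that class were also set side by side. Among these the ETS string was at 2 of 12 member peaks (16.7%), beside 12.0% of such peaks near 5′ ends. The NRF1 string was at 3 of 12 (25%), beside 5.13%, and the YY1 string at 2 (16.7%), beside 2.98%. The GC box was at 5 of 12 (41.7%), beside 41.7%. The peaks without an E-box and with an ETS, NRF1 or YY1 string are shown with the string in capitals, with 1 of the 2 ETS copies at Mrpl52. At Mrpl30 and Mrpl52 the string lies on the strand opposite to the gene.
Mrpl17, NRF1 string (chr7:112959631-112959660, minus strand): aggctctgatGCGCACGCGCaaacgcggta
Mrpl30, NRF1 string (chr1:37947229-37947258, plus strand): tgacgccgctGCGCCTGCGCtgtcttctat
Mrpl45, NRF1 string (chr11:97176982-97177011, plus strand): tggtttcattGCGCACGCGCgaacccactg
Mrps18a, YY1 string (chr17:46247953-46247982, plus strand): aggtgcgttccAAGATGGcggccctcaggg
Mrps36, YY1 string (chr13:101514497-101514526, minus strand): acgatgggcagcAAGATGGcttccgccacc
Mrps18a, ETS string (chr17:46247916-46247945, plus strand): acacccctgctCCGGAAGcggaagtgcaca
Mrpl52, ETS string (chr14:55045688-55045717, plus strand): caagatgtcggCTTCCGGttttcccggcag

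The 60 members without an optimal summit were looked up in the relaxed lists, which hold background as well as peaks, per the deposited readme files. In the relaxed list of replicate 1, 34 of all 78 members had a summit within 1 kb, beside 25.5% of all genes. In replicate 2 it was 56, beside 36.3%. In both lists it was 34, beside 22.4%. Of the 60, 16 had one in both replicates (12 large and 4 small subunit genes), 38 in replicate 2 and 22 in neither. In the relaxed list made from both replicates together 73 of the 78 had a summit within 1 kb, beside 57.9% of all genes. Signal there at 55 of the 60 was between 5.97 and 29.9 (median 13.7), below the weakest bound member (33.4, Mrps36). The bound members have the same signals in this list as in the optimal list. That gap is thus in part set by how genes were called bound, and is not separate support. The highest of the 60 found in both replicates were Mrpl49 at 29.9, Mrpl17 at 27.0, Mrpl16 and Mrpl3 at 26.3, and Mrpl30 at 25.7. Mrpl49 had 9.05 in replicate 1 and 20.6 in replicate 2, and Mrpl17 had 20.3 and 10.6. Mrpl46 and Mrps11, a large and a small subunit gene that face each other across 53 bp, shared a relaxed region of 8.49 and 9.95 and were bound in neither list. Just beyond 1 kb in the optimal list were Mrpl42, 1741 bp from a summit of signal 58.5, and Mrpl22, 1842 bp from one of 51.1.

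Other genes of mitochondrial translation gave 13 bound of 75 (17.3%) in the optimal list, beside 12.5% of all protein-coding genes. Of 5 mitochondrial ribosome proteins with other symbols, 1 was bound, Aurkaip1 at 31.1. Its region had 25.7 in replicate 2 and no matching region in replicate 1. Among 19 assembly factors 4 were bound, which were Mterf3 at 316, Mrm1, an rRNA methyltransferase, at 303, Mtg1, a GTPase, at 35.5, and Mrm3 at 30.6. Of 15 translation factors, Lrpprc, which stabilizes mitochondrial mRNA, was at 317 and Gfm1, an elongation factor, at 44.2. Of 22 mitochondrial tRNA synthetase and related genes, Gatb was at 478, Wars2 at 158 and Ears2 at 153. Of 14 genes of mitochondrial genome expression, the coactivator genes Ppargc1a and Pprc1 were at 158 and 153, and Twnk at 43.8 through the region it shares with Mrpl43. The cytosolic ribosomal protein genes had 20 of 81 bound (24.7%, beside the same 12.5% of all genes), with a median signal of 94.8, beside 131 for all bound genes.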

How the data were processed

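The members and gene lists were chosen with earlier results of these data known. Per the deposited readme files, relaxed lists were made from each replicate and from both together, and the authors thresholded optimal and conservative mm10 lists by IDR (a rank comparison). A separate mm9 list came from both replicates. Peak caller, aligner and thresholds: not given in the sources used here. Signal values were used as the authors deposited them. Column 9, deposited as −log10 values in mm9 and as a score in mm10, only broke ties. No test was run.

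Gene starts came from RefSeq GRCm38.p6 (mm10) and Gencode vM1 (mm9). In mm10, strand came from the RefSeq promoter table for 17492 genes and from Gencode for 4044, and 351 without strand were left out. All 78 members matched in Gencode, 2 by an older symbol. Sequences came from the NCBIM37 (mm9) genome. Replicate regions were paired with optimal regions by an overlap of at least 1 bp.

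Genes were named by rule: bound members, their promoter partners, the nearest and the 5 strongest unbound members, and bound genes of the other lists. Mrps11, Mrpl46, Mrpl54, 1700007K13Rik and the cytosolic genes were added after their values were seen. Python 3.11.15, pysam 0.24.0 and numpy 2.4.6 were used, and scripts were tested on simulated data.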

Additional observations from a re-analysis of the deposited data

How the results depend on the processing

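With the 5312 strongest regions of the mm9 list alone, 11 members were bound, 8 of the large and 3 of the small subunit, beside 9.74% of all genes; 0 of those peaks held CACATG without CACGTG and 4 held neither E-box. All other counts of bound members, E-box classes and bidirectional promoters stayed within 1.5 times the reported ones under the alternatives tried. These were the conservative list (15 bound, without Mrpl13, Mrpl39 and Mrps9, beside 11.7% of all genes), other distances (17 to 20 in the optimal list, beside 11% to 16.5% of all genes, and 19 to 27 in mm9, beside 12.9% to 20.5%), 1 replicate at a time and other choices of gene starts. Leaving out each replicate in turn, with as many of the other's strongest regions as in the optimal list, gave 17 to 20 bound members, of which 16 were bound in the optimal list each time, beside 12.5% of all genes without replicate 2 and 12.9% without replicate 1. For the large subunit the range was 12 to 16 and for the small subunit 4 to 5. The outermost 5′ end alone, chosen after seeing the data, gave 16 in the optimal list, without Mrpl23 and Mrpl36, beside 11.1% of all genes. Protein-coding transcripts alone, also chosen after seeing the data, gave 21 in mm9, beside 14.3%. No paired analysis was possible because there is only 1 group. With 1 list per build, 2 replicates and no read counts, no error could be put on the counts of bound genes.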

Other observations

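Of the 12 member peaks with neither E-box, 3 held CGTGAC on either strand, which is CACGTGAC without its first 2 bases. The string was picked after the sequences were seen. Among all 974 mm9 peaks near 5′ ends with neither E-box it was in 250 (25.7%), beside 1.85% and 2.26% of windows of the same length 500 bp to the left and right. The member share of 25% was thus near that of the other such peaks. The stretches are shown on the strand of the gene in mm9 with the string in capitals, which reads GTCACG at Mrps36.
Mrpl30 (chr1:37947215-37947244, plus strand): aggaagcgcacgCGTGACgccgctgcgcct
Mrpl45 (chr11:97176936-97176965, plus strand): ctccgactggcgCGTGACagccgtgcggtt
Mrps36 (chr13:101514512-101514541, minus strand): ccctgctcggggGTCACGatgggcagcaag

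CpG content (observed over expected) around the member starts had a median of 0.722, beside 0.549 for all protein-coding genes and 0.741 for all bound ones. It was 0.774 for the bound and 0.711 for the unbound members. Its part in the shares of bound genes was not tested.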
